A study of Mus musculus with 2 samples.

Results

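Fibroblasts make signals that call in leukocytes, keep macrophages alive and start vessel growth, and 10 such genes were followed here through endoplasmic reticulum stress in NIH3T3 cells, a mouse fibroblast line. The genes were the chemokines Ccl2, Ccl7, Cxcl1 and Cxcl5, the cytokines Il6 and Lif, and the growth factors Csf1, Vegfa, Hbegf and Gdf15. They were chosen by name, and every non-control probe carrying the name on both arrays was taken. Of the 10 genes, 9 had a probe under that name, and Lif was not analysed here. The 9 genes were covered by 13 probes and 49 spots, out of 28095 gene names, 41174 probes and 43379 spots for transcripts. The 2 conditions were untreated NIH3T3 cells (control) and NIH3T3 cells treated with 10 µM thapsigargin for 3 h, all grown in medium with 10% bovine serum. Thapsigargin blocks the calcium pump of the endoplasmic reticulum. Lysates were spun through sucrose (10 to 40%), and the RNA bound to polysomes (P, labelled with Cy3) was kept apart from free and monosomal RNA (FM, labelled with Cy5). NIH3T3 is a single immortal line, so the values describe this line and not tissue fibroblasts.

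Each condition was measured on 1 two-colour array, which held RNA pooled from 3 preparations. There was therefore no replicate and no test between the conditions, and errors are given only over spots of a probe or over probes of a gene, which is array error. The translation efficiency is the log2 ratio of the P to the FM signal (log2 P/FM), and A is the mean of both log2 signals, a measure of abundance. Changes are thapsigargin minus control on the log2 scale. The study labelled P and FM RNA in the proportions recovered, with more RNA in P in control cells and more in FM under stress. The RNA input of each fraction thus differed between the arrays, and fold differences of P or FM signal are not at equal input. Fewer cells and less RNA per cell cannot be told apart in these bulk samples. All 9 fibroblast markers looked for, among them Col1a1, Col1a2, Vim and Pdgfrb, were well above background in both fractions of both arrays on at least 1 probe. Other probes of Col1a2, Col3a1 and Vim were not, and the genes of other cells were counted by the same rule. The markers of other cells were mostly dim: 2 of 6 macrophage genes (Cd14 and Cd68), 1 of 6 T and B cell genes (Cd3e), 0 of 3 endothelial genes and 0 of 4 epithelial genes on the array passed. Ptprc, which all leukocytes carry, and the macrophage gene Emr1 did not pass.

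Chemokines are small secreted proteins that steer leukocytes along a gradient. Ccl2 and Ccl7 act mainly on monocytes through the receptor Ccr2, and Cxcl1 and Cxcl5 on neutrophils through Cxcr2. Il6 and Lif signal through the shared receptor chain Il6st and the kinase Jak1. Csf1 is the survival and growth factor of macrophages, Vegfa the principal growth factor of vessel endothelium, and Hbegf an EGF family ligand that is made as a membrane protein and released by shedding. Many of these genes carry sites for NF-kB in their promoters, and during stress of the endoplasmic reticulum the kinase PERK phosphorylates eIF2α, which lowers the initiation of translation on most mRNAs.

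The first 30 bases of the probes are shown for the genes whose values carry the account, because the readings of Vegfa and Ccl7 come from different stretches of the same gene. Each probe was 60 bases long, and the positions are on mm9, from the deposited files. Whether a probe lies in coding or untranslated sequence was not analysed here. The Ccl7 probes start at chr11:81860504-81860533 and chr11:81860656-81860685, both on the plus strand. The Il6 probe starts at chr5:30346362-30346391 on the plus strand and the Csf1 probe at chr3:107544363-107544392 on the minus strand. The Vegfa probes are numbered from the 5′ to the 3′ end of the gene, on the minus strand, and probes 1, 3 and 4 start at chr17:46169069-46169098, chr17:46155542-46155571 and chr17:46154417-46154446.
Ccl7 probe 1: gcatggaagtctgcgctgaagcccatcaga
Ccl7 probe 2: ttctgagaactgttgatgaaatgtgttgat
Il6: atattctgttacctagccagatggtttctt
Csf1: tgtggggcttacttagccttctggttacag
Vegfa probe 1: ttaaatcgtgccaacggtttgaggaggttg
Vegfa probe 3: actggattcgccattttcttatatctgctg
Vegfa probe 4: cagatcggtgacagtcactagcttgtcctg

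Promoters are shown for Il6, Cxcl1 and Csf1, which were higher in A under stress and were the 3 genes with an NF-kB match among the 6 of 10 genes with an entry in the RefSeq promoter table (Csf1, Cxcl1, Gdf15, Il6, Lif and Vegfa). The letters GGNNTTTCC were searched on both strands in the 250 bases before each start, and matches are in capitals. Of 32851 start sites in the table, 4.93% held such a match, which is a share of start sites and not of genes. Vegfa had no match at either of its starts and was also higher in A, by 1.25 over 4 probes. Whether a match goes with a higher A was not tested. The Il6 stretch is chr5:30012864-30013113 on the plus strand, the Cxcl1 stretch chr5:90890995-90891244 on the plus strand and the Csf1 stretch chr3:107760470-107760719 on the minus strand, all on GRCm38.p6.
Il6: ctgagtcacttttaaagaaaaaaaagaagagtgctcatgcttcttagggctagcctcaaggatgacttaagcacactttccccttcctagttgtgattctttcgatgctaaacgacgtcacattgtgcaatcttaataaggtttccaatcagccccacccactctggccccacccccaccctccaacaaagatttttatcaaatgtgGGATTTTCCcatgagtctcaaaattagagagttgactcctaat
Cxcl1: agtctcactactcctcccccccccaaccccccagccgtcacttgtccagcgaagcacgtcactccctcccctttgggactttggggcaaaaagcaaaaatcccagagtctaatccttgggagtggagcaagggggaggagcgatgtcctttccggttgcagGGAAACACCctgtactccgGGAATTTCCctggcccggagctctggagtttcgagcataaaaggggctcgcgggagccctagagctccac
Csf1: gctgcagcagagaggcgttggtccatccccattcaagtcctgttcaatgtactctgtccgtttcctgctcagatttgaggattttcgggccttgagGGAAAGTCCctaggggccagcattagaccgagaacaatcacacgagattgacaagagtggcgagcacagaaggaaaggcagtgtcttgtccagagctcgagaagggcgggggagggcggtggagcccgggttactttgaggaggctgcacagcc

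The Il6 match, GGATTTTCC, lay 43 to 35 bases before the start. Cxcl1 held a pair of matches, GGAAACACC at 89 to 81 bases and GGAATTTCC at 70 to 62 bases before the start, and Csf1 held GGAAAGTCC at 154 to 146 bases. The letters TGANTCA of AP-1 stood in the Il6 stretch as TGAGTCA, 249 to 243 bases before the start, and in that of Lif as TGACTCA, 228 to 222 bases before it, against 6.75% of all start sites. The letters of a CRE (TGACGTCA, 1.55% of start sites) and of a C/EBP-ATF element (TGATGNAAN, 3.44%) were in none of the 6 genes. A match is a run of letters, and binding was not measured.

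Among the chemokines, the mRNAs of Ccl2 and Ccl7 gained signal in the FM fraction and little or none in polysomes under thapsigargin. All coding probes shared this pattern in median, changing by 0.71 in FM and 0.08 in P on the log2 scale. Ccl2 gave 23100 units in P and 25300 in FM in control cells, and 31100 and 50900 after thapsigargin, over 10 spots. Its P signal was thus 1.34-fold and its FM signal 2.01-fold that of control cells. The log2 P/FM of Ccl2 went from -0.13 to -0.71, a change of -0.58 ± 0.04 (SD over 10 spots), and the 10 spots ran from -0.64 to -0.52. The control spots lay between -0.19 and -0.01 and the stress spots between -0.81 and -0.56. How many other probes have spots this far apart was not counted. All coding probes changed by a median of -0.64 between the same arrays.

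Ccl7 was read by a probe pair that gave nearly the same values. Probe 1 gave 5370 units in P and 2510 in FM in control cells, and 5550 and 4880 after thapsigargin. Probe 2 gave 8870 and 4310 in control cells, and 8850 and 7420 after thapsigargin. Both P signals were nearly level, at 1.03-fold and 0.998-fold, while FM was 1.95-fold and 1.72-fold that of control cells. Its log2 P/FM went from 1.07 to 0.22, a change of -0.85 ± 0.09 (SD over 2 probes). With a change of -0.91, probe 1 passed the threshold for stress-sensitive mRNAs (-0.8 or lower), and probe 2, at -0.79, lay just outside it. In control cells Ccl7 had the highest log2 P/FM of the genes counted, above 79.0% and 77.1% of all coding probes for its 2 probes.

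The direction of these chemokine values depended on the scaling, since the change in log2 P/FM of Ccl2 and of both Ccl7 probes was positive with the processed signals of the scanner software, after loess, after loess with Aquantile and after centring on the spike-in probes. All coding probes changed by a median of -0.64 in log2 P/FM as reported, and relative to that Ccl2 changed by 0.06 and the Ccl7 probes by -0.27 and -0.14. Over the reported values and 7 other scalings, Ccl2 lay between percentile 29.7 and 89.3 of all coding probes, Ccl7 probe 1 between 23.8 and 73.9, and Ccl7 probe 2 between 25.8 and 78.6. Against coding probes of like brightness, both lay higher as reported, since the median change was -1.62 at a mean A of 11 to 13, where both Ccl7 probes lie, and -1.93 at 13 to 18, where Ccl2 lies.

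The neutrophil chemokines behaved differently from each other in their signals. Cxcl5 gave 2080 units in P and 1590 in FM in control cells, and 2530 and 1950 after thapsigargin, on 1 spot. Both fractions were about 1.2 times brighter (1.22-fold in P and 1.23-fold in FM), and log2 P/FM was 0.39 and 0.38. Its change of -0.01 took the opposite sign in 6 of 8 alternatives, up to 2.54 after centring on the spike-in probes. Relative to the median of all coding probes it was 0.63 as reported and never below 0.06 in the 7 other scalings.

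Cxcl1 had the steepest difference in signal of the 13 probes, on a single spot that the scanner software had marked as non-uniform in the FM channel of the thapsigargin array. Its P signal was 271 units in control cells and 4170 after thapsigargin, and its FM signal 1420 and 6880. P was 15.4-fold and FM 4.85-fold that of control cells, which gives a log2 P/FM of -2.39 and -0.72. Because of the mark on the spot, Cxcl1 is left out of every count below. With marked spots kept, the number of probes higher in A by 1 or more was 7 in place of 6, and that of inducible probes 4 in place of 3.

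**Figure D1:**
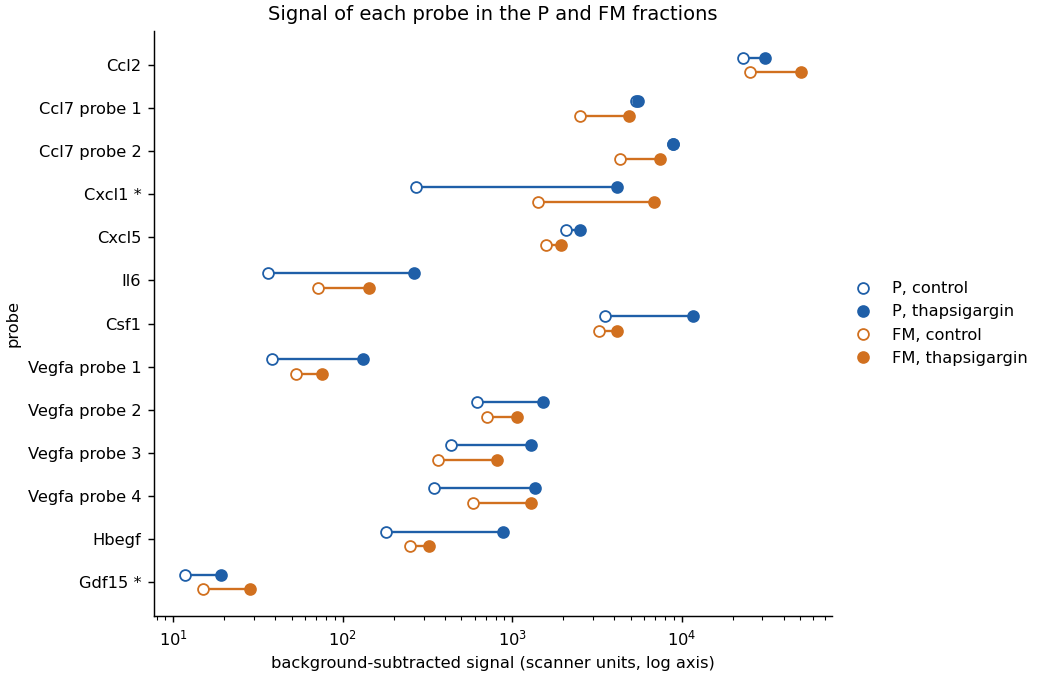
Background-subtracted signal of the 13 probes in scanner units on a log axis, with P in blue and FM in orange, open circles for control and filled circles for thapsigargin. P differed by more than FM for Cxcl1, Il6, Csf1, Hbegf and all 4 Vegfa probes, and FM more than P for Ccl2 and Ccl7; a star marks Cxcl1 and Gdf15, which are left out of the counts, and signals of different probes are not comparable as levels.

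Il6 was brighter in both fractions after thapsigargin, and more so in polysomes. Il6 gave 36.2 units in P and 71.3 in FM in control cells, and 262 and 144 after thapsigargin, as means over 9 spots after 1 marked spot was left out. In P the 9 spots ran from 27.0 to 44.6 in control cells and from 216 to 296 after thapsigargin, and in FM from 61.1 to 80.6 and from 124 to 169. The spot ranges of the arrays lay apart in both fractions, but how many other probes do so was not counted. The P signal was 7.22-fold and the FM signal 2.02-fold that of control cells. Il6 had the lowest log2 P/FM of the counted probes in control cells, -0.98, and reached 0.86 after thapsigargin, a change of 1.84 ± 0.18 (SD over 9 spots).

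In control cells only 11.7% of coding probes had a lower log2 P/FM than Il6, and after thapsigargin 87.8% did. The change in log2 P/FM of Il6 lay above 96.0% and its change in A, 1.94, above 99.2% of all coding probes. Over the reported values and 7 other scalings, these percentiles ran from 92.2 to 96.0 and from 66.9 to 99.3. Il6 met the study's definition of a translation-inducible mRNA, which is a log2 P/FM of 0 or lower in control cells with a change of 1 or more. The change in log2 P/FM stayed between 1.29 and 4.39 in all 8 alternatives. Centring on the array median or on the spike-in probes raised every change in log2 P/FM by a fixed amount, so it could not turn a rise into a fall. Loess with Aquantile left the change equal to that after loess, and keeping marked spots altered only probes with such spots. The change in A was -0.18 with normexp background correction, under which all coding probes had a median change in A of -0.53, and was positive in the other 7 alternatives.

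Csf1 was brighter after thapsigargin, mostly in the polysome fraction. Csf1 gave 3540 units in P and 3270 in FM in control cells, and 11600 and 4160 after thapsigargin, over 10 spots. In P the 10 spots ran from 2930 to 3980 in control cells and from 8940 to 13700 after thapsigargin. In FM they ran from 2630 to 3670 and from 3220 to 4970, and these ranges overlap. The polysome signal was thus the better separated between the arrays. The P signal was 3.29-fold and the FM signal 1.27-fold that of control cells. Log2 P/FM went from 0.11 to 1.48, a change of 1.37 ± 0.08 (SD over 10 spots), and after thapsigargin it was above 96.9% of all coding probes. Since the control value was above 0, Csf1 did not count as inducible. Coding probes of similar brightness (mean A of 11 to 13) had a median change of -1.62 as reported. Its change in log2 P/FM was 1.37 to 3.92 over the 8 alternatives, and its change in A, 1.03 as reported, was 0.53 to 1.29.

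**Figure D2:**
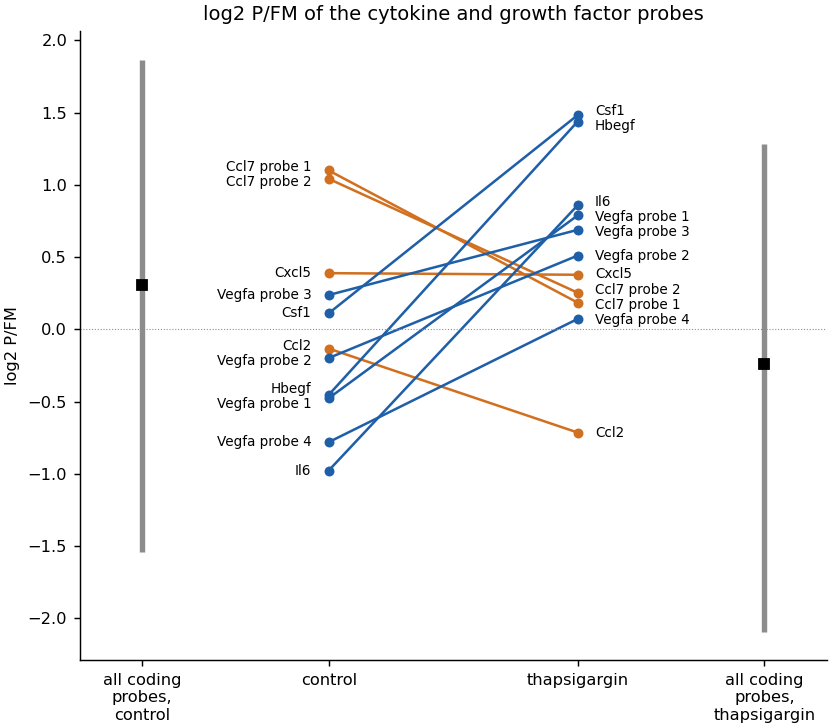
log2 P/FM of the 11 counted probes on the control and the thapsigargin array, in blue where it was higher after thapsigargin and in orange where it was lower, beside the median (square) and the range from the 5th to the 95th percentile (bar) of 14657 coding probes. The 7 probes of Il6, Csf1, Hbegf and Vegfa are higher on the thapsigargin array while the median of all coding probes goes from 0.30 to -0.24, and Csf1 and Hbegf end above the upper end of the stress bar.

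Vegfa was read at 4 places along the gene, and all 4 were higher in P, in FM and in log2 P/FM after thapsigargin. From the 5′ to the 3′ end, the P signal was 3.42-fold, 2.45-fold, 3.01-fold and 3.97-fold that of control cells. FM was 1.42-fold, 1.50-fold, 2.20-fold and 2.20-fold that of control cells in the same order. The polysome signal thus differed more than the FM signal at each place. Probe 3, with 10 spots, gave 433 units in P and 367 in FM in control cells, and 1300 and 809 after thapsigargin. Its spots in P ran from 311 to 524 in control cells and from 894 to 1570 after thapsigargin. In FM they ran from 252 to 449 and from 582 to 973. The other 3 probes, with 1 spot each, gave the same order of the conditions in both fractions. Probe 1, the dimmest, gave 38.2 and 53.2 units in control cells, and 131 and 75.7 after thapsigargin. Probe 2 gave 622 and 714, then 1530 and 1070, and probe 4 gave 344 and 591, then 1360 and 1300.

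The 4 Vegfa probes differed in their log2 P/FM while sharing its direction of change. Their control values ran from -0.78 at probe 4 to 0.24 at probe 3, and their stress values from 0.07 at probe 4 to 0.79 at probe 1. The change was 0.82 ± 0.34 (SD over 4 probes), with 1.26 at probe 1, 0.71 at probe 2, 0.45 at probe 3 and 0.85 at probe 4. The median SD between probes of 1 accession was 0.32 over 3438 accessions, but the Vegfa probes belong to 2 accessions, so the measures differ. The mean change over all spots was 0.99 for probes 1 and 2, and 0.49 for probes 3 and 4. The second mean mostly reflects probe 3, which had 10 spots against 1 for probe 4. Probe 1 alone counted as inducible. A was higher by 1.25 ± 0.27 (SD over 4 probes), between 0.94 and 1.56. The change in log2 P/FM of all 4 probes was positive in all 8 alternatives, though the centrings could only raise it. The change in A of probe 1 was -0.84 with normexp and positive in the other 7. Whether the probes read different splice forms was not tested.

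Hbegf had the largest change in log2 P/FM of the counted probes, on 1 spot. It gave 181 units in P and 248 in FM in control cells, and 881 and 325 after thapsigargin. The P signal was 4.86-fold and the FM signal 1.31-fold that of control cells, so log2 P/FM went from -0.45 to 1.44, a change of 1.89. This change lay above 96.4% of all coding probes, and the stress value above 96.5%. A was higher by 1.34. Hbegf counted as inducible, and its change was 1.74 to 4.44 in log2 P/FM and 0.48 to 1.60 in A over the 8 alternatives. With 1 spot its error was not measured. The median SD between probes of 1 accession, 0.32 for the change in log2 P/FM and 0.18 for the change in A, is the nearest guide.

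Gdf15, a distant member of the TGF-beta superfamily that is known as a stress-induced cytokine, was too dim to be counted. Its single spot was not well above background in either fraction in control cells, and A was 3.72 and 4.54, so that it failed the filter of A above 4.5 on both arrays. After thapsigargin it was well above background in both, at 19.1 units in P and 28.4 in FM. Against its own measured control signals of 11.7 and 15.0, P was 1.63-fold and FM 1.89-fold. Since those control signals were not well above background, these are ratios of a single dim spot and set no lower limit. No change in log2 P/FM is drawn from it.

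Set beside all mRNAs, 9 of the 11 counted probes lay above the median change in log2 P/FM of all coding probes. Both Ccl7 probes lay below it, though above the -1.62 of probes of their own brightness. The counts cover 11 probes of 7 genes and 14657 of 26723 coding probes (54.8%) with A above 4.5 on both arrays. The median change in log2 P/FM was 0.71 over the 11 probes and -0.64 over all coding probes. Log2 P/FM was higher after thapsigargin in 7 of the 11 probes (Csf1, Hbegf, Il6 and all 4 of Vegfa), against 32.2% of all coding probes. Only Ccl7 probe 1 was stress-sensitive, against 45.2% of all. The study's resistant class, with log2 P/FM at or above 0.8 in control and stressed cells alike, held 0 of the 11 and 3.54% of all. Inducible were 3 of the 11 (Hbegf, Il6 and Vegfa probe 1), against 11.0% of all.

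For Csf1, Hbegf, Il6 and Vegfa the polysome signal differed more between the conditions than the FM signal, but not for Ccl2, Ccl7 or Cxcl5. The P and FM changes were not recomputed under the other scalings. A P signal higher by 1 or more on the log2 scale was found in 7 of the 11 probes (Csf1, Hbegf, Il6 and Vegfa) and in 19.7% of all coding probes. For FM this was 4 of 11 (Ccl2, Il6 and Vegfa probes 3 and 4) against 32.7%. In median the P signal changed by 1.59 over the 11 probes and by 0.08 over all, whereas FM changed by 0.78 and 0.71. The FM changes of the 11 probes, from 0.30 for Cxcl5 to 1.14, thus lay between percentile 26.8 and 74.5 of all coding probes, with Csf1 at 29.6 and Hbegf at 31.9. A was higher by 1 or more in 6 of the 11 probes (Csf1, Hbegf, Il6 and Vegfa probes 1, 3 and 4), against 13.4% of all, and lower by 1 or more in 0, against 0.628%. The 11 probes are not independent, since Vegfa gave 4 of them and Ccl7 gave 2.

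**Figure D3:**
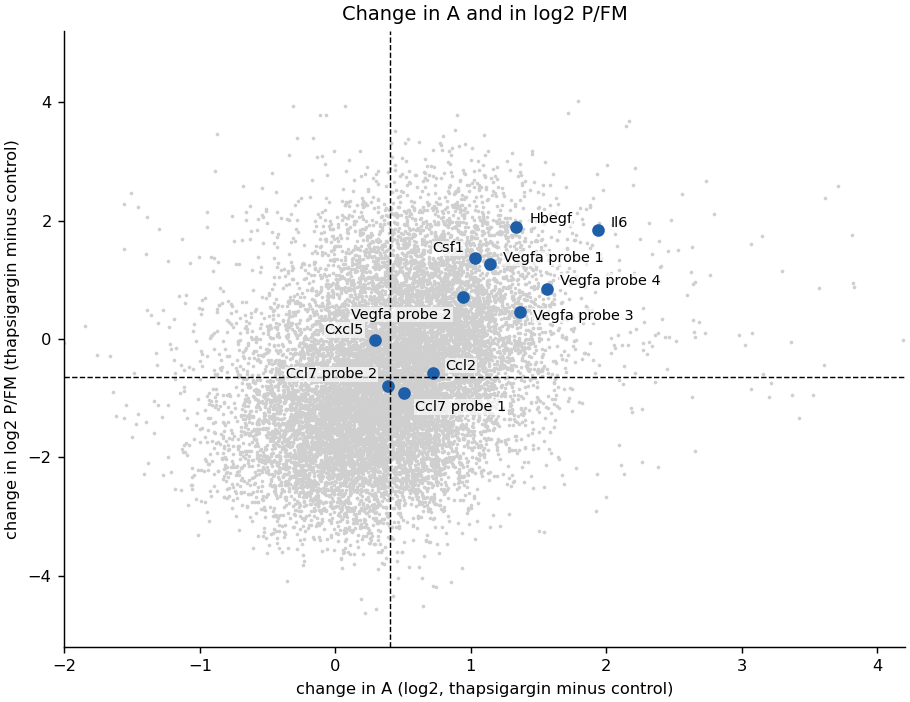
Change in A (horizontal) against change in log2 P/FM (vertical), both thapsigargin minus control on the log2 scale, for 14657 coding probes in grey and the 11 counted probes in blue, with dashed lines at the medians of all coding probes and 7 grey probes outside the axes. Il6, Hbegf, Csf1 and the Vegfa probes lie above and to the right of both lines, while Ccl2, Cxcl5 and Ccl7 lie near the crossing.

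These shares moved with the scaling of the arrays. All scalings act on ratios in which the unequal RNA input of P and FM was kept. The median change in log2 P/FM was -2.44 over 10 probes for spiked-in control RNA, which the cells do not make. With the processed signals, after loess, after loess with Aquantile and after centring on the spike-in probes, log2 P/FM was higher in all 11 probes, and the share of all coding probes that were higher was then 43.0%, 46.2%, 46.2% and 95.1%. It was higher in 8 of 11 probes after centring on the array median and with normexp, against 47.0% and 51.0% of all, and in 7 of 11 without background subtraction, against 33.2%. In the 7 other scalings, between 8 and 11 of the 11 probes lay above the median change of all coding probes, and 9 did so as reported. Relative to that median, Il6 stayed at 1.27 or more, Csf1 at 1.38 or more, Hbegf at 1.78 or more and the lowest of the Vegfa probes at 0.67 or more.

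**Figure D4:**
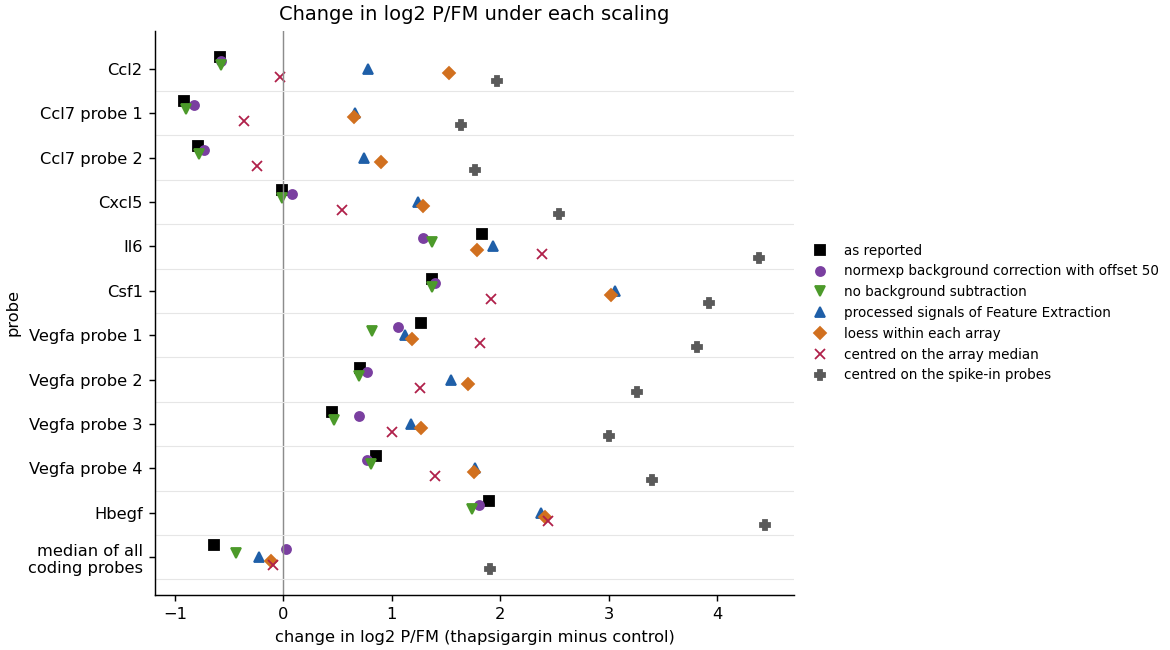
Change in log2 P/FM of the 11 counted probes and median of all coding probes (lowest line), thapsigargin minus control, as reported (black squares) and under 6 other settings; loess with Aquantile gave the same values as loess. Il6, Csf1, Hbegf and Vegfa stay to the right of 0 under every setting shown, whereas Ccl2, Ccl7 and Cxcl5 cross it. Both centrings move every value to the right.

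The genes around these signals were followed through lists of the same families, receptors and regulators, each without the genes above. Both centrings raise every change in log2 P/FM, so a rise keeps its sign there. Of the other chemokines, 8 of 37 probes were detected, from 7 genes, and their median change in log2 P/FM was -0.79, close to the -0.64 of all coding probes. Of the 8, 4 were stress-sensitive and 1 was inducible, against 45.2% and 11.0% of all coding probes. Ccl8, a monocyte chemokine, went from a log2 P/FM of 2.11 to -0.23, a change that turned positive with spike-in centring. Ccl5, a T cell chemokine, was higher in A by 2.45, a change that turned negative with normexp, and its log2 P/FM was -1.19 and -1.70. Cxcl12 changed by -0.99 in A and had a lower A under every scaling.

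The relatives of Il6 did not share its shift as a group. The 6 detected probes of its family had a median change of -0.08, with 1 inducible (Clcf1, from -1.28 to -0.02) and 2 sensitive, against 11.0% and 45.2% of all. That median changed sign in 3 of 7 other scalings. Clcf1 had a near level P signal, 88.2 and 82.1 units, and a lower FM signal, 214 and 83.1 units, so its A changed by -0.74. On the receiving side, 12 probes of receptors, kinases and feedback genes had a median change of 0.26, positive under all 7. Osmr, the oncostatin M receptor chain, went from -1.36 to 0.61, and Il11ra1, the receptor of Il11, from 1.87 to -1.40, and both kept their direction under all 7 other scalings. Socs3, a feedback inhibitor of Il6 signalling, changed by -0.29 in A, while the change in its log2 P/FM, -0.38, took the opposite sign in 5 of 7.

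Close relatives of the growth factors went several ways. Of 4 detected probes of other colony stimulating factors, 2 were inducible, both of Kitl, and 2 were sensitive, against 11.0% and 45.2% of all coding probes. Kitl, a stem cell factor, went from a log2 P/FM of -1.01 to 1.21 on 10 spots, under every scaling in the same direction. Flt3l and Il34 changed by -1.34 and -1.11, and both changes turned positive with spike-in centring. In the VEGF and PDGF family 5 of 9 probes were stress-sensitive, against 45.2% of all coding probes, with a median change of -0.84 that turned positive in 4 of 7 other scalings. Vegfb went from -0.71 to -2.05 on 1 of its probes, a change that turned positive with spike-in centring, and from -0.54 to -1.86 on another, a change that turned positive in 4 of 7 other scalings. Pdgfc was higher in log2 P/FM by 0.81 and 0.72 on 2 probes, under every scaling. Of the VEGF receptors 2 of 7 probes were detected, and the co-receptor Nrp2 went from 0.09 to 1.43. Adam17, the protease that sheds Hbegf and other EGF ligands, was higher in A by 1.12 and 1.48 on its 2 probes and in log2 P/FM by 0.71 and 0.67, under every scaling. Erbb2, in the same list, changed by -1.49 in log2 P/FM on 8 spots, which turned positive with spike-in centring. The 4 detected EGF family probes (Ereg and Nrg1) had a median change of -0.27, of opposite sign in 3 of 7.

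Among the TGF-beta superfamily ligands 9 of 32 probes were detected, with 3 sensitive and 1 inducible, against 45.2% and 11.0% of all. Their median change in log2 P/FM was -0.31, but it turned positive in 6 of 7 other scalings. Tgfb1 went from 0.80 to -1.37 on 10 spots, a change that turned positive with spike-in centring. The 8 detected probes of FGF, HGF and IGF genes had a median change of 0.16, positive under all 7. Fgf7 went from -1.41 to 0.66, while its A changed by -0.53, with P at 669 and 944 units and FM at 1770 and 599.

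The NF-kB circuit acts on the promoters of many cytokines. Its factors and feedback genes had a median change in A of 0.89 over 20 probes, against 0.40 for all coding probes, and 7 of the 20 were higher by 1 or more, against 13.4% of all, while 13 were not. Tnfaip3 and Nfkbie, inhibitors in the NF-kB circuit, were higher in A by 3.83 and 3.06, and Nfkbiz by 2.74, under every scaling. The log2 P/FM of these 3 changed in different ways, by 0.88, -0.85 and 2.67, and that of Nfkbie turned positive with spike-in centring. Over the whole list 10 of 20 probes were stress-sensitive and 3 inducible, near the 45.2% and 11.0% of all coding probes, and the median change in log2 P/FM was -0.65 against -0.64.

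The list of proteins that bind AU-rich elements in cytokine mRNAs held 7 inducible and 7 sensitive probes of 16. Of all coding probes, 11.0% were inducible and 45.2% sensitive. This list also holds the poly(A)-binding protein Pabpc1, with an inducible probe that changed by 1.45. The median change in log2 P/FM of the 16 probes was 0.00, which no other scaling lowered, and it was above that of all coding probes under each. Zfp36l1, which promotes mRNA decay, went from -1.34 to -0.28, and Elavl1, which stabilizes such mRNAs, from -0.50 to 0.51. Khsrp, another decay factor, went from 0.09 to -2.50. None of the 10 probes for leukocyte receptors of these signals passed the filter.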

How the data were processed

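Polysome-bound RNA (P, Cy3) and free and monosome RNA (FM, Cy5) of control and thapsigargin-treated NIH3T3 cells were hybridised to 1 two-colour 44K array per condition, at 300 ng of RNA in total per the labels, from 4 plates. Per the file headers, the deposited spot intensity values were extracted with Feature Extraction 10.7.1.1 and carry no normalization. The authors also deposited log2 ratios per accession, and all 10 rows of the genes described here equalled the mean over all spots within 0.001. Groups were taken from the labels, and 0 columns stayed unmapped.

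With limma 3.58.1 in R 4.3.3 and pandas 2.3.3 in Python 3.11.15, each spot's mean signal was reduced by its median local background and raised to 0.5 where it came out lower, which is the correction the study's methods name. No normalization was applied. Spots with an outlier mark (295, 0.680%) were dropped, and spots of a probe were averaged. Coding probes were those with an NM accession, and counts used A above 4.5 on both arrays. The number of arrays limits the precision, and no test between conditions was made. No spot was saturated (0), and 42.5 to 46.3% of spots were well above background per channel. A gene in a list was named for being among the 2 largest rises or 2 largest falls in log2 P/FM or A of its list, on probes well above background on both arrays. The steps were tested on simulated data. The genes, lists and thresholds were chosen with earlier results of these data known. Promoters came from RefSeq (GRCm38.p6), matched by symbol, and all 13 probe accessions carried the same symbol there. The sequence of 1 Vegfa probe is not reported here. Alternatives were 3 other background or signal choices (normexp with offset 50, none, processed signals), loess, Aquantile, centring on the array median or 10 spike-in probes, filters of A above 5.5 or 7 or none, well-measured probes only, accession as the unit and summed signals. Keeping marked spots was chosen after seeing the data.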

Additional observations from a re-analysis of the deposited data

How the results depend on the processing

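Of 67 values over the counted probes recomputed under an alternative, 43 stayed within the spread between probes or, for counts, within 1.5 times, and 24 did not. The cause was not tested. The median change in log2 P/FM (0.71) was 1.24 with the processed signals, 1.53 after loess and after loess with Aquantile, 1.26 centred on the array median and 3.26 centred on the spike-in probes. The sensitive count (1) was 0 under those 5 settings. The sensitive share of all coding probes was then 32.4%, 27.1%, 27.1%, 28.9% and 0.621% in that order, against 45.2% as reported. The inducible count (3) was 8 with the processed signals, 9 after loess with or without Aquantile, 6 after centring on the array median and 1 with A above 7, a filter that left 9 probes. The inducible share of all coding probes, 11.0% as reported, was 16.0% with the processed signals. It was 16.7% after loess with or without Aquantile and 19.5% after centring on the array median. The median change in A (1.03) was 0.48 with normexp, 0.64 with the processed signals, 0.85 after loess with Aquantile, 0.53 centred on the array median and 1.29 on the spike-in probes. The count higher in A by 1 or more (6) was 1 with normexp, 3 with the processed signals, and 2 after loess with Aquantile or centring on the array median. The share of all coding probes, 13.4% as reported, was then 1.45%, 5.04%, 3.78% and 2.5% in that order. Of 176 values of single probes, 75 stayed within the spread between probes, 95 moved beyond it and 6 changed sign from a change that had passed a class threshold (-0.8 or lower or 1 or more in log2 P/FM, 1 or more in A). Smaller changes took the opposite sign in log2 P/FM for Ccl2 and Ccl7 probe 2 (4 of 8 alternatives each) and Cxcl5 (6), and in A for Ccl7 probe 2 (2) and Cxcl5 (3). The change in log2 P/FM of Ccl7 probe 1 became 0.66 with the processed signals, 0.65 after loess and after loess with Aquantile, and 1.64 centred on the spike-in probes. With normexp the change in A became -0.18 for Il6 and -0.84 for Vegfa probe 1, the dimmest counted probes. No replicate could be left out. No paired analysis was possible because the groups hold 1 sample each. Gdf15 was limited by signal over background, and pooling of preparations hides their spread.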
